A study of Arabidopsis thaliana with 10 samples.

Results

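COR47 (AT1G20440, probe set 259570_at) and LTI30 (AT3G50970, also called XERO2, probe set 252102_at) are 2 dehydrins of Arabidopsis thaliana, here followed through the response of seedlings to cold. They are 2 of the 13356 genes that have at least 1 probe set to themselves in the array annotation, and each is measured by exactly 1 such probe set. The arrays carried 22746 probe sets besides controls, and 10 arrays were hybridised, 2 in each of 5 groups. The groups were seedlings of the ecotype C24, a natural accession, kept at room temperature or moved to 4 °C for 3 h or 24 h, and of the ecotype Col, the source of the reference genome, moved to 4 °C for 24 h or kept at room temperature. Plants carried no stated mutation or transgene and were raised on plates in a chamber at 23 and 18 °C. Their age is 20 days in the sample labels and 14 days in the series text. The tissue is leaf in the labels, while the series text gives seedlings. There is no Col group at 3 h. According to the series text, replicates within a group are biological.

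Dehydrins are hydrophilic, largely unfolded proteins of the late embryogenesis abundant (LEA) class, which accumulate in drying seeds and in vegetative tissue during cold, drought or salt stress. They carry lysine-rich repeats, the K-segments, with which they can attach to membranes and other proteins and protect them when cells lose water during freezing. COR47 is an acidic dehydrin with a run of serines, closely related to ERD10. LTI30 is a basic dehydrin rich in histidine that binds membrane lipids. Genes of this kind are switched on in cold by the CBF transcription factors, which bind a short cold and drought element in their promoters, and many also respond to the hormone abscisic acid.

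All values below are RMA signals on the log2 scale, so a difference of 1 is a 2-fold change, and signals of different probe sets are not compared with each other as amounts. COR47 read 11.29 and 11.26 on the unchilled C24 arrays, 12.60 and 12.64 after 3 h of cold, and 12.76 and 12.78 after 24 h. In Col it read 14.29 and 14.35 after 24 h of cold, against 11.52 and 11.44 at room temperature. Every cold array of either ecotype thus lay above every room temperature array. LTI30 read 9.51 and 9.23 on the unchilled C24 arrays, 11.61 and 11.59 after 3 h of cold, and 12.93 and 12.98 after 24 h. In Col it read 14.07 and 14.18 after 24 h of cold, against 11.20 and 11.25 at room temperature. For LTI30 too the cold and room temperature arrays did not overlap, even across ecotypes. No array put either gene in the background range, taken here as the lower quartile of an array (4.48 to 4.52).

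**Figure D1:**
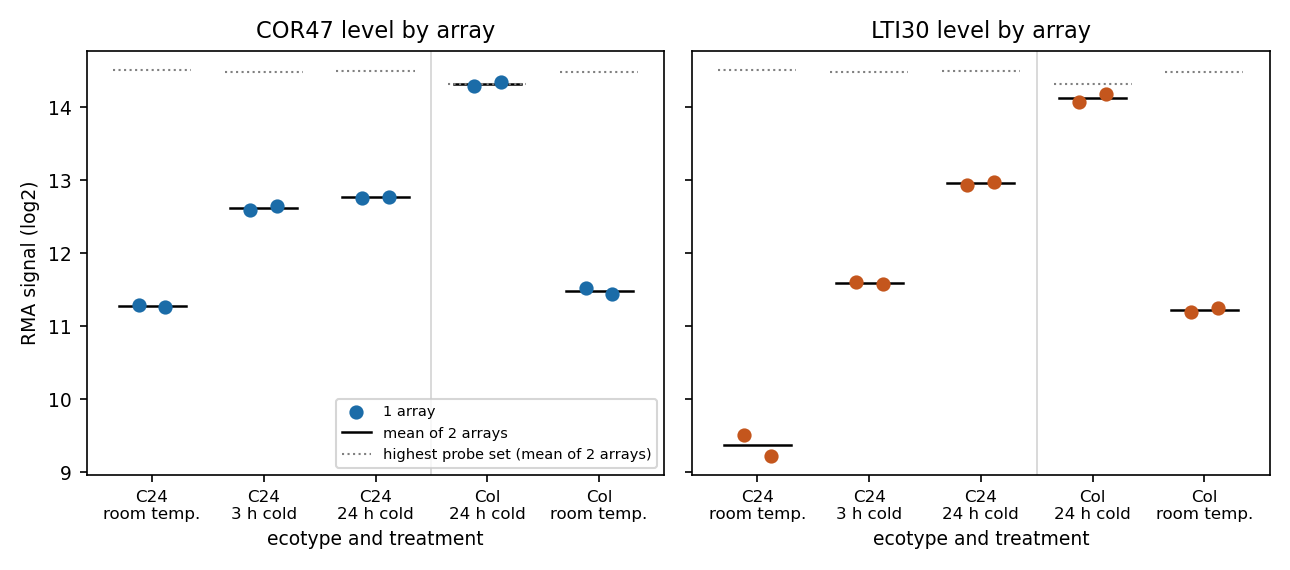
RMA signal (log2) of COR47 (left) and LTI30 (right) in 5 groups of 2 arrays; points are arrays, black bars are means of 2 arrays and dotted bars are the highest probe set of the arrays. COR47 reaches the dotted bar in Col after 24 h of cold, at 14.29 and 14.35, and LTI30 is lowest in C24 at room temperature, at 9.51 and 9.23.

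The 5 groups stood in the same order for both genes: unchilled C24, unchilled Col, C24 after 3 h, C24 after 24 h and Col after 24 h. For LTI30 every neighbouring pair in this order differed past the threshold, an adjusted p below 0.05 by limma over all 22746 probe sets. The closest pair was C24 after 3 h of cold (11.60 ± 0.02, SD, n = 2) and Col at room temperature (11.23 ± 0.04), which differed by 0.37 ± 0.09 (SE, limma adjusted p = 0.00625), a comparison in which 26.0% of all probe sets were called higher. For COR47 the neighbours C24 after 24 h (12.77 ± 0.01) and C24 after 3 h (12.62 ± 0.03) did not differ past the threshold. COR47 in C24 (11.28 ± 0.02) and in Col (11.48 ± 0.06) at room temperature differed by -0.20, a call that several alternatives did not keep, as given below.

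In C24, 3 h of cold raised both dehydrins. LTI30 stood at 11.60 ± 0.02 after 3 h, against 9.37 ± 0.20 at room temperature (SD, n = 2), a change of 2.23 ± 0.09 (SE) or 4.68-fold, with a 95% interval of 4.06 to 5.39-fold (limma adjusted p = 8.40e-09). COR47 stood at 12.62 ± 0.03, against 11.28 ± 0.02, a change of 1.34 ± 0.07 or 2.54-fold, with an interval of 2.28 to 2.82-fold (limma adjusted p = 4.19e-08). Both genes were higher on both cold arrays than on either room temperature array, an order that 2 arrays against 2 often show by chance. The share of all probe sets with such an order is not given here. In this comparison 22.5% of all probe sets were called higher, and LTI30 had rank 185 and COR47 rank 589 among the rises of 22746 probe sets.

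After 24 h in C24 both genes were again called higher than at room temperature. LTI30 stood at 12.96 ± 0.04, against 9.37 ± 0.20 at room temperature, a change of 3.59 ± 0.09 (SE) with a 95% interval of 10.4 to 13.8-fold (limma adjusted p = 1.66e-10). It had rank 26 among the rises. COR47 stood at 12.77 ± 0.01, against 11.28 ± 0.02, a change of 1.49 ± 0.07 or 2.81-fold, with an interval of 2.53 to 3.12-fold (limma adjusted p = 1.02e-08), and had rank 617. Of all probe sets, 24.1% were called higher here. The changes of the 2 genes were not tested against each other.

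Between 3 h and 24 h in C24, LTI30 rose by 1.36 ± 0.09 (SE) or 2.57-fold (limma adjusted p = 4.19e-07). COR47 changed by 0.15 ± 0.07 (limma adjusted p = 0.113), with a 95% interval from -0.01 to 0.30. On the log2 scale the 3 h change was 90.2% of the 24 h change for COR47 and 62.1% for LTI30, shares that rest on the same room temperature arrays. Of all probe sets, 21.7% were called higher at 24 h than at 3 h. The COR47 step passed the threshold with arrays centred on their medians (0.20, limma adjusted p = 0.0303) and with an intensity trend and robust prior (0.15, limma adjusted p = 0.00729).

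In Col, 24 h of cold raised both genes by nearly equal amounts. COR47 stood at 14.32 ± 0.04 after cold, against 11.48 ± 0.06 at room temperature, a change of 2.84 ± 0.07 (SE) or 7.17-fold, with an interval of 6.45 to 7.96-fold (limma adjusted p = 1.65e-10). LTI30 stood at 14.12 ± 0.08, against 11.23 ± 0.04, a change of 2.90 ± 0.09 or 7.45-fold, with an interval of 6.47 to 8.59-fold (limma adjusted p = 1.31e-09). Their ranks among the rises were 61 and 57, and 23.2% of all probe sets were called higher. The 2 changes differed by 0.06, a difference that was not tested. Both genes lay at or near the highest signal of the cold Col arrays, as given below.

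The cold Col arrays carried both genes at the top of the measured scale. COR47 was the highest of 22746 probe sets on both of them. LTI30 had rank 10 and rank 5 there, 0.22 and 0.17 below the highest. In C24 after 24 h, COR47 had ranks 132 and 129, and LTI30 had ranks 96 and 89. A probe set that KIN1 and KIN2 share read 14.24 on both cold Col arrays. Whether signals this high still grow in proportion to transcript was not tested.

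**Figure D2:**
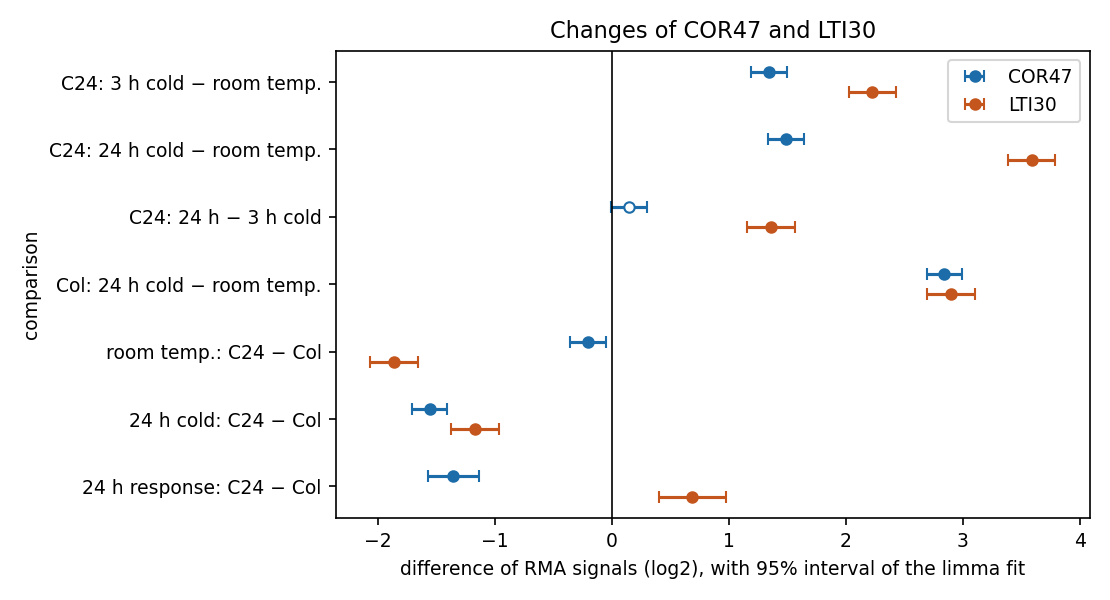
Differences of RMA signals (log2) for COR47 and LTI30 in 7 comparisons, with the 95% interval of the limma fit; filled points passed the threshold and the open point did not. Both genes rose by close to 2.9 in Col, whereas in C24 the 24 h changes were 3.59 for LTI30 and 1.49 for COR47.

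**Figure D3:**
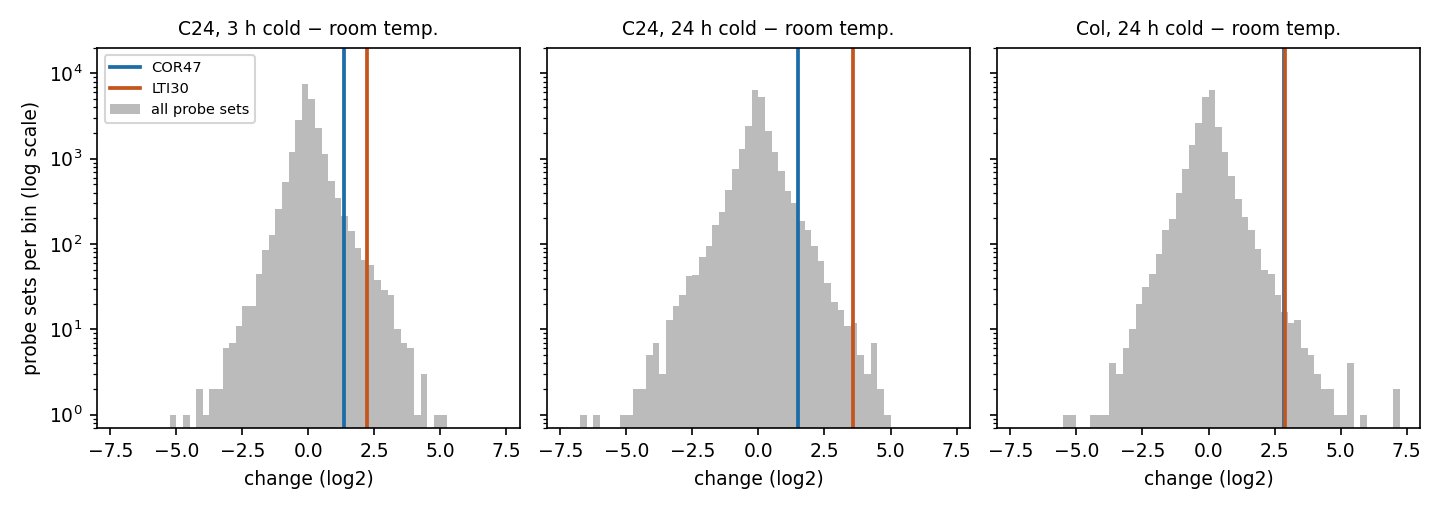
Number of probe sets (log scale) by their change (log2, bins of 0.25) in the 3 comparisons of cold with room temperature, with lines at COR47 and LTI30. The lines lie close together in Col, at 2.84 and 2.90, and stand apart in C24 after 24 h, at 1.49 and 3.59. In cold Col both genes lay at or near the highest signal.

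Both dehydrins were called lower in C24 than in Col at both temperatures, LTI30 by more at room temperature and COR47 by more after cold. At room temperature LTI30 stood at 9.37 ± 0.20 in C24, against 11.23 ± 0.04 in Col (SD, n = 2), a difference of -1.86 ± 0.09 (SE, limma adjusted p = 1.73e-08), which is 3.62-fold lower. COR47 stood at 11.28 ± 0.02 in C24, against 11.48 ± 0.06 in Col, a difference of -0.20 ± 0.07 (limma adjusted p = 0.0265). Of all probe sets, 23.4% were called lower in C24 at room temperature. The COR47 call was lost with arrays centred on their medians (limma adjusted p = 0.0504), with only the 4 arrays compared (0.0598), and without Col room temperature replicate 1 (0.147), C24 room temperature replicate 1 (0.0627) or C24 room temperature replicate 2 (0.102).

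After 24 h of cold, COR47 stood at 12.77 ± 0.01 in C24, against 14.32 ± 0.04 in Col, a difference of -1.55 ± 0.07 (SE) or 2.94-fold lower (limma adjusted p = 1.35e-08). LTI30 stood at 12.96 ± 0.04 in C24, against 14.12 ± 0.08 in Col, a difference of -1.17 ± 0.09 or 2.25-fold lower (limma adjusted p = 1.32e-06). Of all probe sets, 21.2% were called lower in cold C24. The probes of this array type were designed on the Col genome.

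The 24 h responses themselves differed between ecotypes in opposite directions. For COR47 the change in C24 was 1.35 ± 0.10 smaller than in Col, a difference of responses of -1.35 (SE, limma adjusted p = 7.81e-07). For LTI30 it was larger in C24 by 0.69 ± 0.13 (limma adjusted p = 0.0014). Of all probe sets, 19.1% were called with a lower and 20.4% with a higher response in C24, 39.5% in all. The 2 responses of a gene start from different levels, LTI30 being lower in unchilled C24. Set against unchilled Col alone, LTI30 stood 1.73 ± 0.09 higher in C24 after 24 h and 2.90 ± 0.09 higher in Col after 24 h. For COR47 the same values were 1.29 ± 0.07 and 2.84 ± 0.07. On the cold Col arrays LTI30 also lay only 0.22 and 0.17 below the highest signal and COR47 at it, and the part of this in the differences of responses was not tested.

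Arrays of the ecotypes and the C24 room temperature arrays also differed in other measures. The mean of 12 probe sets for spiked poly-A transcripts ran from 6.94 to 7.24 on the C24 arrays and from 5.74 to 5.78 on the Col arrays. The 3' minus 5' difference of a GAPDH control, which grows with RNA degradation, ran from 0.37 to 0.86 in C24 and from 0.09 to 0.31 in Col, while a second GAPDH control pair gave -0.30 to -0.18 in C24 and -0.33 to -0.24 in Col. The spikes and the first GAPDH control did not overlap between ecotypes, so such array differences cannot be told apart from ecotype in the C24 minus Col results. Of 12 green leaf markers 4 had a probe set of their own in the annotation. Their mean signal lay between 12.99 and 13.70 on every array. The root marker PYK10 also stood well above the background range, with group means from 10.61 to 12.81. The root markers EXPA7 (group means 4.73 to 6.48) and EXPA18 (5.10 to 7.14) stood much lower. Both came closest to the background range in C24 at room temperature. Of 10 root markers 3 were measured, and their summed linear signal was 1608 and 1638 in C24 at room temperature, against 6891 and 8003 in Col at room temperature. That sum was 5974 and 6063 in C24 after 3 h, 3192 and 3147 in C24 after 24 h, and 4890 and 5141 in Col after 24 h. The sum is mostly PYK10, and the mean log2 signal of the 3 markers gave another order, with 7.86 and 7.89 in C24 after 3 h and 8.11 and 8.10 in Col after 24 h. Sum and mean were both lowest in C24 at room temperature (mean 6.78 and 6.85), the group in which LTI30 and COR47 were both lowest. The part of the root marker differences in the LTI30 and COR47 results was not tested. None of the 7 seed markers had a probe set of its own in the probe annotation used. In whole seedlings or leaves, fewer cells of a type and less RNA per cell cannot be told apart.

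Of the 10 dehydrin genes of the family, 6 had their own named probe set. Among the other 4, HIRD11 (AT1G54410), a small histidine-rich dehydrin, was the only one well above the background range on every array. HIRD11 read 12.63 and 12.64 in C24 after 24 h of cold, against 13.00 and 13.08 at room temperature, a change of -0.41 ± 0.08 (SE, limma adjusted p = 0.000745). In Col it read 13.40 and 13.48 after 24 h, against 12.56 and 12.47 at room temperature, a change of 0.93 ± 0.08 (limma adjusted p = 1.47e-06). HIRD11 thus fell in cold C24 and rose in cold Col, and the difference of responses was -1.34 ± 0.11 (limma adjusted p = 1.78e-06). After 3 h in C24 its change was 0.02 ± 0.08 (limma adjusted p = 0.851).

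The dehydrin gene AT4G38410 read 5.20 and 5.29 in C24 after 24 h, against 4.31 and 4.78 at room temperature, where 1 array lay in the background range. It rose by 0.70 ± 0.16 (SE) at 24 h and by 0.64 ± 0.16 at 3 h in C24, and by 1.33 ± 0.16 in Col (limma adjusted p = 0.00299, 0.00666 and 3.12e-05). The 3 h call was lost without C24 room temperature replicate 1 (0.0719) or C24 3 h replicate 1 (0.0753). AT2G21490 stayed in the background range on all arrays, and AT4G39130 on all but those of C24 after 24 h (4.77 and 4.79). Counting all 6 measured dehydrins, COR47 and LTI30 included, 4 were called higher and 0 lower at 3 h in C24, 5 higher and 1 lower at 24 h in C24, and 4 higher and 0 lower in Col. Of all probe sets, 22.5%, 24.1% and 23.2% were called higher and 23.2%, 25.4% and 25.9% lower in these comparisons. The higher calls in C24 include AT2G21490, whose signals were in the background range on all arrays. At 24 h they also include AT4G39130 (0.49 ± 0.11, SE, limma adjusted p = 0.00224), whose room temperature arrays lay in that range. The AT2G21490 call at 24 h was lost without C24 room temperature replicate 2 (0.0519) or C24 24 h replicate 1 (0.109). Of the 4 dehydrins other than COR47 and LTI30, 2 were called higher and 0 lower at 3 h in C24. At 24 h in C24 these were 3 and 1, and in Col 2 and 0. The median changes of all 6 dehydrins were 0.51, 0.60 and 1.13, against -0.04, -0.02 and 0.01 over all probe sets. These medians include COR47 and LTI30, which were chosen with earlier results of these data known.

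**Figure D4:**
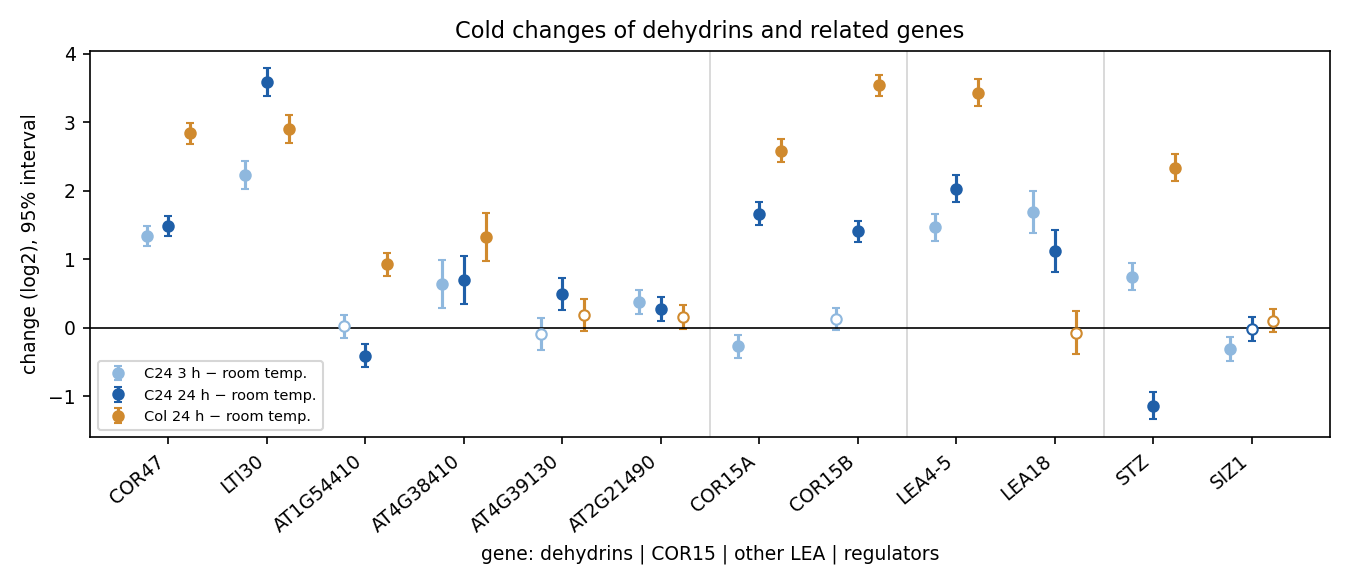
Change (log2) with the 95% interval of the limma fit for 6 dehydrins, 2 COR15 genes, 2 other LEA genes and 2 regulators in the 3 comparisons of cold with room temperature; filled points passed the threshold. COR47, LTI30, AT4G38410 and LEA4-5 rose in all 3 comparisons, while COR15A and COR15B did not rise at 3 h in C24.

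Other genes of the cold pathway were few on the arrays under a name of their own, with 2 of 16 cold-regulated targets, 2 of 19 signalling regulators, 2 of 10 other LEA genes and 0 of 20 abscisic acid genes. The chloroplast cold proteins COR15A and COR15B, are targets of the same CBF pathway. At 3 h in C24, COR15A changed by -0.27 ± 0.08 (SE, limma adjusted p = 0.0138) and COR15B by 0.13 ± 0.07 (limma adjusted p = 0.162), beside the 1.34 of COR47 and the 2.23 of LTI30. Differences between genes were not tested. The COR15A call was lost without C24 room temperature replicate 1 (0.1) or C24 3 h replicate 1 (0.0662), and that of COR15B was gained with an intensity trend and robust prior (0.0205). After 24 h in C24, COR15A had risen by 1.67 and COR15B by 1.41, and in Col by 2.59 and 3.54. At room temperature COR15A stood 0.95 ± 0.08 and COR15B 2.12 ± 0.07 higher in C24 than in Col (limma adjusted p = 9.70e-07 and 6.41e-10). Their responses thus start from different levels in C24 and Col. Between ecotypes after 24 h of cold, COR15A differed by 0.02 ± 0.08 (95% interval -0.14 to 0.19). COR15B differed by -0.01 ± 0.07 (95% interval -0.17 to 0.14), against the -1.55 of COR47 and the -1.17 of LTI30. After 24 h of cold COR15A read 14.17 and 14.07 in C24 and 14.08 and 14.12 in Col. LTI30 read 14.07 and 14.18 in Col after 24 h. Whether COR15A signals this high still grow in proportion to transcript was not tested. The KIN1 and KIN2 probe set, which cannot be assigned to either gene, changed by -0.19 ± 0.07 at 3 h (limma adjusted p = 0.0436, lost at 0.0882 with only the compared arrays and at up to 0.234 without single arrays) and by 2.11 ± 0.07 at 24 h in C24, and by 1.97 ± 0.07 in Col.

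LEA4-5, a LEA protein of another group that protects during water loss, also rose in all 3 comparisons. It rose by 1.47 ± 0.09 (SE) at 3 h and 2.03 ± 0.09 at 24 h in C24, and by 3.43 ± 0.09 in Col (limma adjusted p = 1.62e-07, 6.77e-09 and 2.70e-10). Its difference of responses was -1.40 ± 0.13, beside the -1.35 of COR47. LEA18 rose in C24, by 1.70 ± 0.14 at 3 h and 1.13 ± 0.14 at 24 h, and changed by -0.07 ± 0.14 in Col (limma adjusted p = 0.727). LEA18 lay in the background range on all 4 Col arrays, so its Col change, and the fitted difference of its responses (1.19 ± 0.20, limma adjusted p = 0.000536), are not set against a measured Col level. The zinc finger repressor STZ rose by 0.75 ± 0.09 at 3 h and fell by 1.14 at 24 h in C24, and rose by 2.34 ± 0.09 in Col. Unchilled STZ stood at 9.33 in C24 and 6.93 in Col. SIZ1, a SUMO ligase that stabilises the CBF activator ICE1, fell by 0.30 at 3 h in C24 and changed by -0.02 ± 0.08 and 0.11 ± 0.08 after 24 h in C24 and Col.

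Genes with a pattern like that of each dehydrin were sought among 3588 other probe sets with exactly 1 gene and group means ranging over at least 1. Likeness was the Pearson r over the 10 arrays, which share their groups of 2 and are no independent points, so the values describe these arrays only. The closest to COR47 was EXLA2 (AT4G38400), an expansin-like protein of the cell wall, with an r of 0.996. EXLA2 rose by 1.42 at 3 h and 1.52 at 24 h in C24 and by 2.60 in Col, close to the 1.34, 1.49 and 2.84 of COR47. LEA4-5 followed with an r of 0.989, the defensin-like gene PDF2.1 with 0.988, AT5G47400 with 0.984 and AT1G64890 with 0.977. The closest to LTI30 was AT2G16890, a predicted glycosyltransferase gene, with an r of 0.995. It rose by 2.05 at 3 h and 3.34 at 24 h in C24 and by 2.76 in Col, beside the 2.23, 3.59 and 2.90 of LTI30. AT5G27760 (0.986), AT1G77610 (0.983), AT5G52580 (0.981) and TET2 (0.980), a tetraspanin, followed, all with group means that ranged over 1.02 to 1.75, against the 4.75 of LTI30. COR47 and LTI30 had an r of 0.918 with each other, which put LTI30 in place 53 for COR47 and COR47 in place 86 for LTI30.

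**Figure D5:**
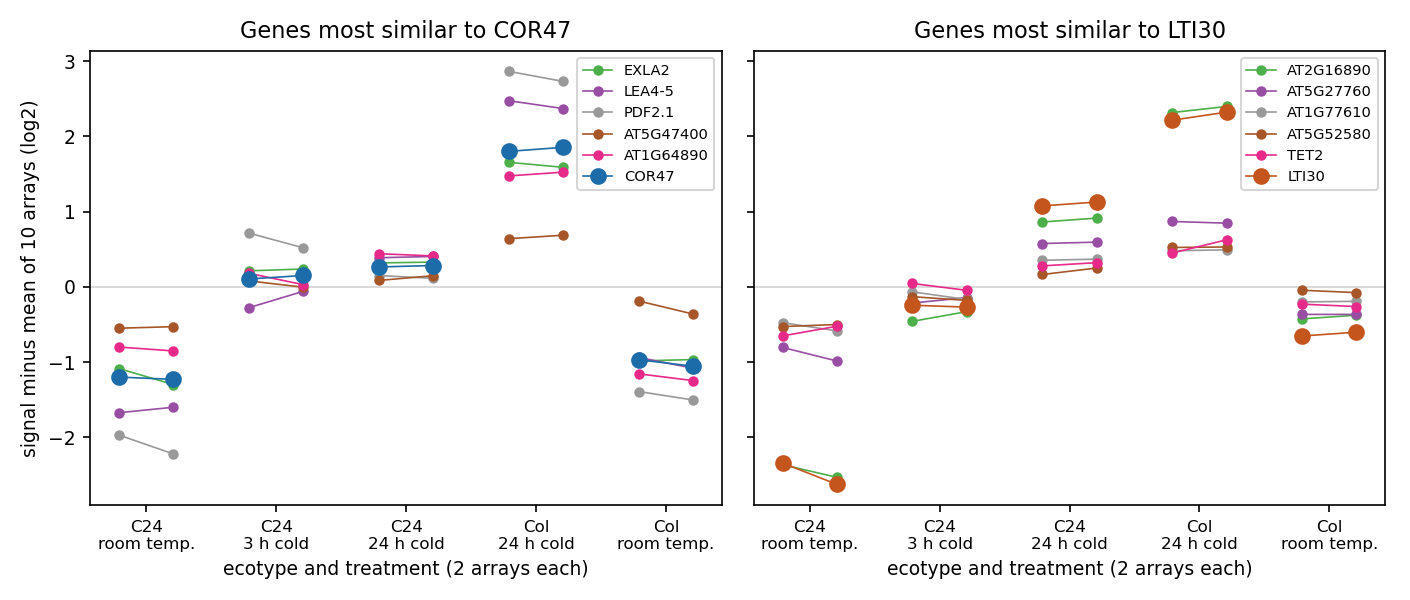
Signal minus its mean over 10 arrays (log2) for COR47 (left) and LTI30 (right) with the 5 genes of highest Pearson r each; linked points are the 2 arrays of a group. EXLA2 runs along COR47 and AT2G16890 along LTI30, with r of 0.996 and 0.995.

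Both dehydrin genes have a dehydrin gene as the next protein-coding gene on their chromosome in the TAIR10.1 annotation, ERD10 beside COR47 and XERO1 beside LTI30. Neither of these had a named probe set of its own. On its other side COR47 is flanked by AT1G20430, which did not share its course. AT1G20430 read 7.66 and 7.60 in Col after 24 h of cold, against 8.46 and 8.42 at room temperature, a change of -0.81 ± 0.09 (SE, limma adjusted p = 2.19e-05). In C24 it changed by 0.23 ± 0.09 at 3 h (limma adjusted p = 0.0638) and by -0.26 ± 0.09 at 24 h (limma adjusted p = 0.0367), and the 24 h call was lost with arrays centred on their medians (0.0538) and without any C24 array of the comparison (0.0528 to 0.177).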

How the data were processed

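Total RNA was labelled with biotin and hybridised to Affymetrix arrays, per the labels' protocols. The authors deposited log2 signals from GCOS and RMA, per the submitters' processing notes, which give no versions and do not say whether all arrays were normalised together. RMA corrects background, equalises the arrays' distributions and combines the probes of each set.

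From 22810 probe sets 64 controls were removed, and 22746 were tested with no filter or pseudocount. In the probe annotation 13513 have exactly 1 gene, 503 several and 8730 none; 13436 of the first kind matched a locus code in RefSeq for TAIR10.1. Probe sets of several genes or none enter the tests but are not named, except the one shared by KIN1 and KIN2. A gene with several probe sets is given by the one with the highest mean.

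A model with 5 group means was fitted by lmFit and eBayes (limma 3.58.1, R 4.3.3) to 10 arrays. Benjamini-Hochberg adjustment ran over all probe sets within each of 11 comparisons, and calls have an adjusted p below 0.05. Of these comparisons, 10 are all pairs of groups and 1 is the difference of the 24 h responses. The number of arrays limits the precision, with a median SE of 0.0878 for a difference of groups. Genes named are both members, all measured dehydrins, the listed pathway genes and the 5 most similar genes each; AT1G20430 was named after its values were seen. The members and lists were chosen with earlier results of these data known. Alternatives changed the scaling (quantiles equalised again, or arrays centred on medians), blocked on replicate number, used trend and robust options in eBayes, dropped dim probe sets, kept 1 per gene, fitted only compared arrays, asked for 2-fold changes, or omitted each array in turn. The fit was tested on simulated data, with results not reported here.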

Additional observations from a re-analysis of the deposited data

Results flagged for a closer look

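The 24 h response differed between ecotypes, by limma's test of the difference itself, for the following genes, given as the C24 change minus the Col change (log2). COR47 stood at -1.35, the dehydrins HIRD11 (AT1G54410) at -1.34 and AT4G38410 at -0.63, COR15A at -0.92, COR15B at -2.13, LEA4-5 at -1.40 and STZ at -3.48. LTI30 stood at 0.69 and AT1G20430, the gene beside COR47, at 0.55. LEA18 stood at 1.19, but lay in the background range on all 4 Col arrays, so that its Col response is not measured. The call of AT4G38410 (limma adjusted p = 0.0454) was lost with the replicate number as a block (0.0563) and without any of 7 single arrays (0.06 to 0.168). Of all probe sets, 39.5% were called in this comparison.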

How the results depend on the processing

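Of 396 values of the COR47 and LTI30 changes under 18 alternatives, 386 kept their direction and side of the threshold and 0 reversed. The C24 minus Col difference of COR47 at room temperature was lost with arrays centred on their medians (-0.17), with only the compared arrays (-0.20) and with a 2-fold threshold (-0.20), and ranged from -0.25 to -0.16 with each array left out. The COR47 step between 3 h and 24 h in C24 was gained with median centring (0.20) and with trend and robust options (0.15). A 2-fold threshold also dropped LTI30 in C24 at 3 h against Col at room temperature (0.37) and in the difference of responses (0.69). That difference of responses ranged from 0.55 to 0.83 with each array left out. That threshold, by construction, left 2496, 1617, 1906, 1641, 2543, 1847 and 2554 probe sets called in C24 at 24 h, C24 at 3 h, Col at 24 h, C24 24 h against 3 h, C24 against Col at room temperature and at 24 h, and the difference of responses, and 1 probe set per gene, with fewer tested, left 5977, 5431, 5999, 5290, 6967, 6027 and 4610, against 11254, 10390, 11174, 10073, 12749, 11218 and 8981 as reported. In these comparisons other than Col at 24 h, 6, 4, 3, 5, 6 and 4 dehydrins were called as reported. The 2-fold threshold kept 2, 2, 1, 1, 3 and 2 of them. In Col at 24 h 4 dehydrins were called, of which HIRD11 (0.93) fell short of 2-fold. Of the 5 genes most similar to COR47, 2 stayed by distance and 0 over the 6 C24 arrays, and of those most similar to LTI30, 1 stayed by distance, 3 over group means and 1 over the C24 arrays. Among 21 other named probe sets, 58 of 2464 values lost and 14 gained a call, with 0 reversed.

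Replicate numbers did not meet the condition for pairing samples: between-group correlations of the replicate 1 minus replicate 2 differences ran from -0.12 to 0.12 over 10 pairs of groups, 1 of them over 0.1. With the replicate number as a block, no call of COR47 or LTI30 changed (LTI30 difference of responses 0.69, limma adjusted p = 0.00235), while the 3 h call of the KIN1 and KIN2 probe set in C24 was lost (0.0555). With 2 arrays a group, the number of arrays limits precision.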
